A study of Mus musculus with 3 samples.

Results

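The genes described here encode the catalytic and inhibitory subunits of phosphodiesterase 6, the enzyme that hydrolyses cGMP in the outer segments of rods and cones. They were the 5 mouse genes Pde6a, Pde6b, Pde6g, Pde6c and Pde6h, taken by matching the RefSeq accession printed for each probe, out of 21366 genes named on the arrays. In all 7 of the 55681 probes belonged to them, with 1 probe each for Pde6a (gene ID 225600), Pde6b (18587) and Pde6g (18588) and 2 each for Pde6c (110855) and Pde6h (78600). All 7 probes were well above background on all 3 arrays. RNA came from mouse retinas dissected at postnatal day 12 and was hybridised to 1-colour Agilent expression arrays after amplification and Cy3 labelling. The groups were Otx2 KI, Crx KO and wild-type, with 1 array each. The labels state neither the locus nor the changed sequence of the Otx2 KI and Crx KO alleles, nor the mouse strain, and they do not say whether retinas were pooled. A retina contains all of its cell types, so fewer photoreceptors and less RNA per photoreceptor cannot be told apart in these values.

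In rods, Pde6a and Pde6b encode the catalytic alpha and beta subunits, which pair with each other, and Pde6g encodes the inhibitory gamma subunit that holds the pair inactive in the dark. In cones, Pde6c encodes the catalytic alpha-prime subunit, which pairs with itself, and Pde6h encodes the cone inhibitory subunit. When light activates an opsin, transducin draws the inhibitory subunit away from the catalytic pair, cGMP falls, and the cyclic nucleotide-gated channels of the outer segment close. Crx and Otx2 are related homeodomain transcription factors of photoreceptors and bipolar cells.

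The promoter sequences of the rod gene Pde6b and the cone gene Pde6h are shown so that their letters can be set beside the differences from wild-type given further on. Sequences were matched for these 2 of the 5 members, so the pair was set by the table and not by the values. They are the 250 bases before the gene start in RefSeq's GRCm38.p6 assembly, on the plus strand, at chr5:108388123-108388372 for Pde6b and chr6:136954273-136954522 for Pde6h. Capitals mark matches to the motifs described next.
Pde6b: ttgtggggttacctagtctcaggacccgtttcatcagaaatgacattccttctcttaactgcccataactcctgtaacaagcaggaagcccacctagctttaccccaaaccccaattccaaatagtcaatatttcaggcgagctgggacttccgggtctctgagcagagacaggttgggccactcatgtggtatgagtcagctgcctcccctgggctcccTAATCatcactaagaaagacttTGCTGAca
Pde6h: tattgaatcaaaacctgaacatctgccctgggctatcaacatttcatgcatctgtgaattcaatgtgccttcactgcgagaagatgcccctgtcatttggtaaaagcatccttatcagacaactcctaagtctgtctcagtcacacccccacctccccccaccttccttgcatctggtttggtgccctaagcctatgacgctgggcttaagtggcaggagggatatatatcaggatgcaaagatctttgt
Each window of 300 bases, which runs on for 50 bases past the start, was searched on both strands for TAATCC, a homeodomain motif of the Crx and Otx type, for its core GATTA, and for TGCTGA, part of the element bound by the rod factor Nrl. TAATCC read on its other strand contains GATTA, so every match to TAATCC is also a match to GATTA. The Pde6b window held 1 GATTA match on the opposite strand, from -30 to -26 relative to the start, and 1 TGCTGA match on the gene's strand, from -8 to -3. It held 0 matches to TAATCC, and the Pde6h window held 0 matches to each of the 3 motifs. Among all 32851 promoter windows of the same length, 22.0% held GATTA, 19.5% held TGCTGA and 7.06% held TAATCC. These matches are a description of the letters and say nothing on binding.

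Signals are given as scaled signal, the scanner's background-subtracted Cy3 intensity with each array set to the same 75th percentile as the wild-type array. The lowest spot among the members still stood 9.87 times above its local background, and the highest 3159 times. A difference between arrays is on the log2 scale, and the ± beside it is the scanner software's own error for that difference, which was 0.20 for every member. That error concerns the reading of 1 RNA preparation, and the spread between mice is unknown. It is a nearly fixed proportion of the signal from the software's error model. For Pde6a it was 88.8 on a signal of 887 in Otx2 KI and 4031 on 40311 in wild-type. Probes printed on several spots had a median log2 standard deviation between their spots of 0.075 to 0.077 on the 3 arrays. Since each genotype has 1 array, no difference has a replicate check and no p-value can be given. A gene was counted as lower or higher when it differed by 2-fold or more, a log2 difference of 1. Both mutant arrays were set against the same wild-type array, so anything peculiar to that array enters both comparisons.

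Pde6a, the rod catalytic alpha subunit, had a scaled signal of 887 in Otx2 KI and 2799 in Crx KO, against 40311 in wild-type. Both mutant retinas were therefore at a small share of the wild-type signal, 2.20% in Otx2 KI and 6.94% in Crx KO. The differences were -5.51 ± 0.20 (45.4-fold lower) in Otx2 KI and -3.85 ± 0.20 (14.4-fold lower) in Crx KO. Among all genes measured on both arrays, only 6 of 15809 lay further below wild-type than Pde6a in Otx2 KI, and 19 of 16048 did so in Crx KO.

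Pde6b, the partner of Pde6a in the rod enzyme, read 4569 in Otx2 KI and 6012 in Crx KO, against 13234 in wild-type. It was lower in both mutants by much less than Pde6a. The differences were -1.53 ± 0.20 (2.90-fold lower) in Otx2 KI and -1.14 ± 0.20 (2.20-fold lower) in Crx KO. The Crx KO value lies within 1 scanner error of the 2-fold line. Mutations of Pde6b cause the rd1 and rd10 forms of retinal degeneration in mice.

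Pde6g, the rod inhibitory subunit, read 32123 in Otx2 KI and 31635 in Crx KO, against 152810 in wild-type. The mutant arrays thus gave nearly the same value, with Otx2 KI at 21.0% and Crx KO at 20.7% of wild-type. The differences were -2.25 ± 0.20 (4.76-fold lower) in Otx2 KI and -2.27 ± 0.20 (4.83-fold lower) in Crx KO.

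Pde6c, the cone catalytic subunit, was read by 2 probes. The brighter one gave 4321 in Otx2 KI and 2910 in Crx KO, against 11428 in wild-type. The other gave 661 in Otx2 KI and 334 in Crx KO, against 1868 in wild-type. Both probes had the same order of arrays, with Crx KO lowest. On the brighter probe the differences were -1.40 ± 0.20 (2.64-fold lower) in Otx2 KI and -1.97 ± 0.20 (3.93-fold lower) in Crx KO. The other probe gave -1.50 in Otx2 KI, 0.10 away from the first, but -2.48 in Crx KO, which is 0.51 away and more than the scanner error.

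Pde6h, the cone inhibitory subunit, was also read by 2 probes. The brighter one gave 2980 in Otx2 KI and 1362 in Crx KO, against 25576 in wild-type. The other gave 1899 in Otx2 KI and 908 in Crx KO, against 15628 in wild-type. Crx KO was again the lowest array on both. The brighter probe was -3.10 ± 0.20 (8.58-fold lower) in Otx2 KI and -4.23 ± 0.20 (18.8-fold lower) in Crx KO, and the other probe differed from it by at most 0.13. In Crx KO only 10 of 16048 genes lay further below wild-type.

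**Figure D1:**
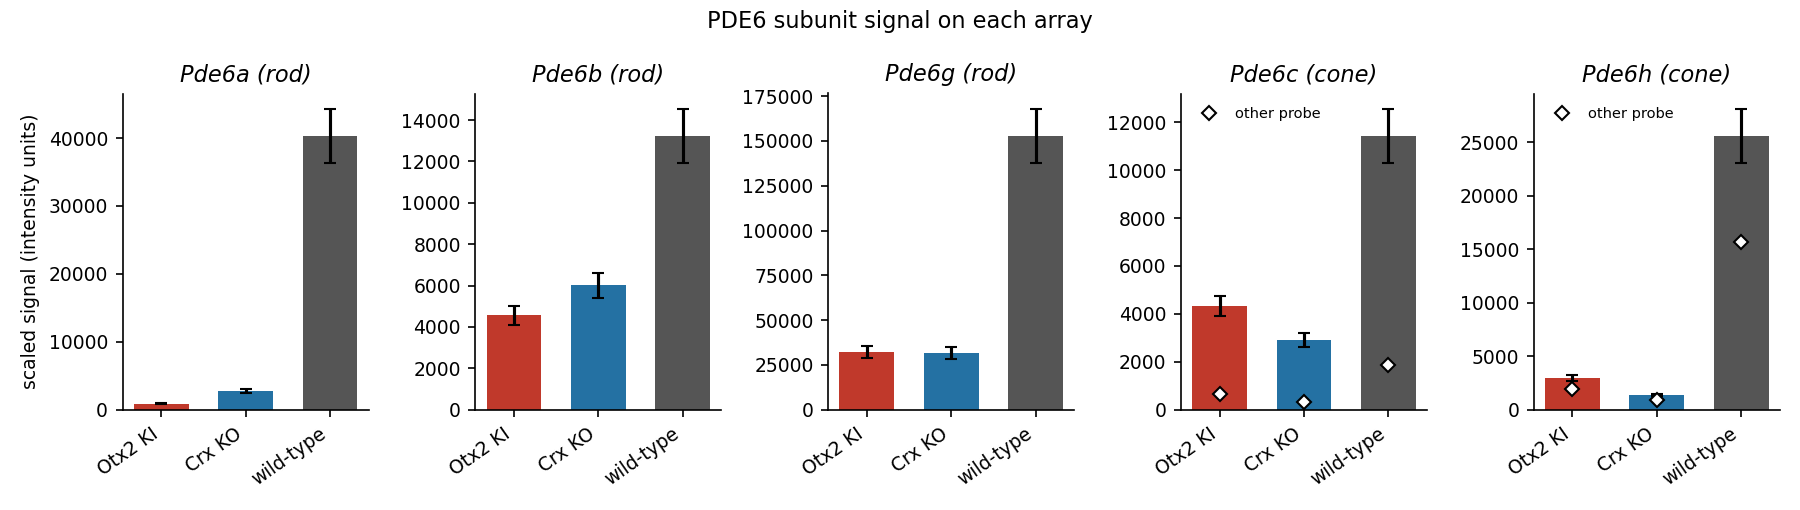
Scaled signal (y axis, intensity units, 1 scale per gene, starting at 0) for each PDE6 gene on the Otx2 KI, Crx KO and wild-type arrays, 1 array each. Bars are the brighter probe with the scanner software's error, and diamonds the other probe of Pde6c and Pde6h; wild-type is highest in all 5 panels, Otx2 KI lowest for Pde6a and Pde6b, and Crx KO lowest for Pde6c and Pde6h.

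All 5 genes were past 2-fold below wild-type in Otx2 KI, where 2.53% of the 15809 measured genes lay that low and 1.35% that far above. In Crx KO all 5 genes were again past 2-fold below wild-type, where 3.43% of 16048 measured genes lay that low and 1.95% that far above. The median difference of the 5 genes was -2.25 in Otx2 KI, against 0.03 for all measured genes, and -2.27 in Crx KO, against -0.01 for all measured genes. Their sizes were far from equal, and spanned 4.10 on the log2 scale in Otx2 KI and 3.09 in Crx KO.

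**Figure D2:**
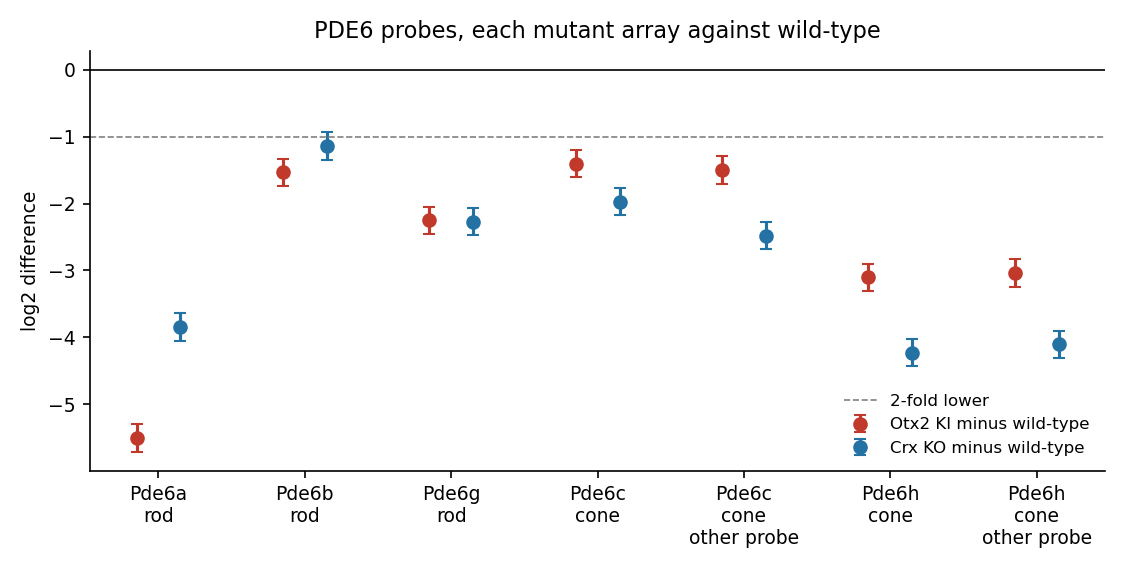
Log2 difference from wild-type (y axis) for the 7 PDE6 probes (x axis), with Otx2 KI in red and Crx KO in blue. Error bars are the scanner software's error of the difference, and the dashed line marks 2-fold lower; every probe lies below it, from -1.14 for Pde6b in Crx KO to -5.51 for Pde6a in Otx2 KI.

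The subunits of one enzyme did not keep step. Relative to wild-type, Pde6a was lower than its partner Pde6b by a further 15.7-fold in Otx2 KI (-3.97 ± 0.29) and 6.54-fold in Crx KO (-2.71 ± 0.29). The inhibitory Pde6g lay between its catalytic partners in both mutants, -0.72 ± 0.29 from Pde6b in Otx2 KI and -1.13 ± 0.29 in Crx KO. In the cone enzyme the inhibitory Pde6h was lower than the catalytic Pde6c, by -1.70 ± 0.29 in Otx2 KI and -2.26 ± 0.29 in Crx KO. Each of these is a gap between differences from wild-type, and levels of different probes were not compared. The ± holds no term for the choice of probe, and Pde6a, Pde6b and Pde6g have 1 probe each. Probes of a single gene can also differ in their difference from wild-type. In Otx2 KI the 2 probes of Guca1b gave -4.89 and -7.14, and those of Rgs9bp gave -1.69 and -0.81.

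Rod and cone subunits did not separate into a more and a less reduced class. For the inhibitory subunits, the rod gene Pde6g minus the cone gene Pde6h was 0.85 ± 0.29 in Otx2 KI and 1.96 ± 0.29 in Crx KO. The cone gene was thus the more reduced in both. For the catalytic subunits, the mean of Pde6a and Pde6b minus Pde6c was -2.12 ± 0.25 in Otx2 KI and -0.52 ± 0.25 in Crx KO. That mean hides unequal parts, which were of opposite sign in Crx KO but not in Otx2 KI. Pde6a alone minus Pde6c was -4.10 in Otx2 KI and -1.87 in Crx KO, whereas Pde6b alone minus Pde6c was -0.13 in Otx2 KI and 0.84 in Crx KO, a split examined after the values were seen. With the other Pde6c probe the catalytic gap in Crx KO was -0.011.

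**Figure D3:**
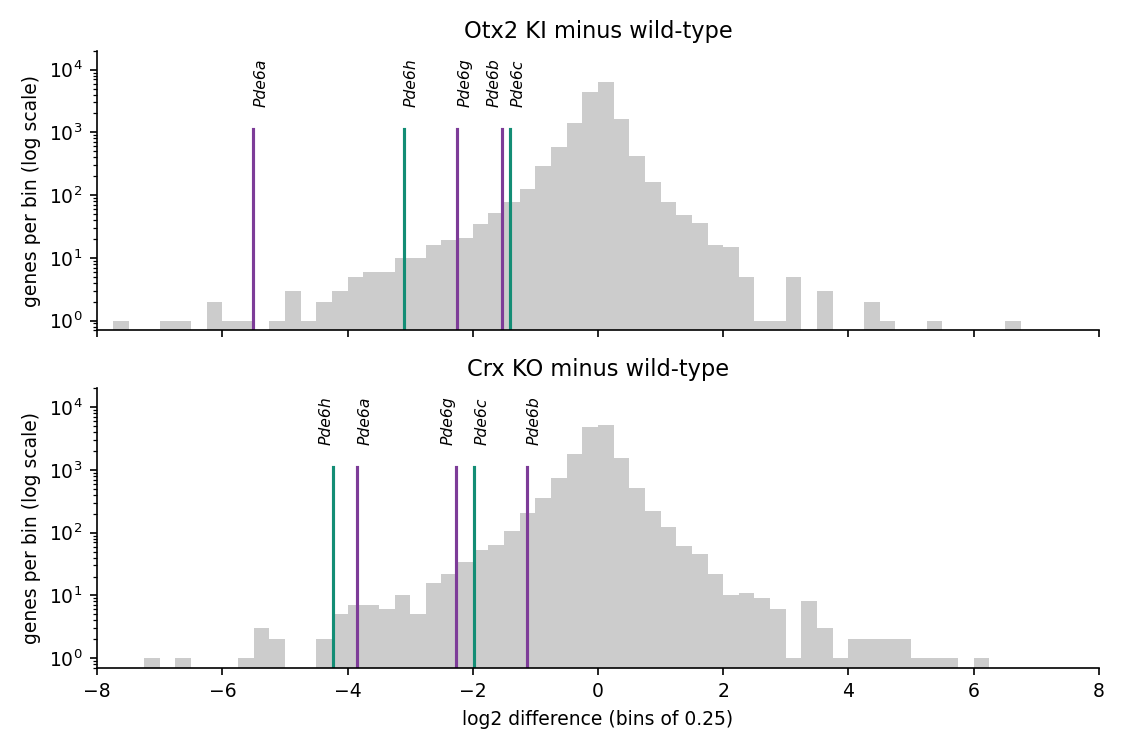
Number of genes (y axis, log scale) per bin of 0.25 of the log2 difference (x axis), for Otx2 KI (top, 15809 genes) and Crx KO (bottom, 16048 genes) against wild-type. Vertical lines mark rod PDE6 genes in purple and cone PDE6 genes in green; all 5 lie in the lower tail, with Pde6a furthest left in Otx2 KI and Pde6h in Crx KO.

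When the mutants were set directly against each other, the rod catalytic genes read lower and the cone genes higher in Otx2 KI. For Pde6a, Otx2 KI stood 3.15-fold below Crx KO (-1.66 ± 0.20). Pde6b was 1.32-fold lower (-0.40 ± 0.20), and 4.82% of all measured genes lay below it. Pde6g differed by 1.02-fold (0.02 ± 0.20), within the scanner error. The cone genes ran the other way. Pde6c was 1.48-fold higher in Otx2 KI (0.57 ± 0.20, and 0.98 on its other probe), and Pde6h was 2.19-fold higher (1.13 ± 0.20, and 1.06 on its other probe). At 2-fold, 1 of the 5 genes was lower in Otx2 KI and 1 was higher, where 0.645% and 0.677% of 15805 measured genes were. For scale, 5% of measured genes lay below -0.39 and 5% above 0.42 in this comparison. The rod minus cone gap was -1.60 ± 0.25 for the catalytic subunits and -1.11 ± 0.29 for the inhibitory ones. Markers of 3 other cell types or tissues differed in the direction of the cone PDE6 genes, with Otx2 KI above Crx KO. All 4 lens genes were past 2-fold (median 2.07, or 0.99 with normexp background correction), and all 4 microglia genes lay between 0.42 and 0.54. The 4 measured pigment epithelium genes had a median of 0.41, with 1 past 2-fold. That gene, Lrat (1.35), was dim, at 34.5 in Otx2 KI and 13.5 in Crx KO, and read 0.29 with normexp. Their part in the cone PDE6 values was not tested.

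The remaining rod and cone cascade genes give the setting for that contrast. The lists follow the rod and cone cascades, and expression of their genes in other retinal cells was not examined. Of the 9 other rod genes analysed here, 6 read below their Crx KO signal in Otx2 KI. The median was -0.22, and 1 was past 2-fold, the rod transducin Gnat1 (-1.27). Of 8 other cone genes measured on both mutant arrays, 6 read above their Crx KO signal in Otx2 KI. Their median was 0.15, and 0 were past 2-fold in either direction. Among the 10 cone genes with the members counted in, Pde6h was the highest and Pde6c came next. The cone arrestin Arr3 (-0.91) and the cone transducin Gnat2 (-0.64) lay on the opposite side. Median differences are set against 0.04 for all measured genes. Of 15805 measured genes, 9428 read above their Crx KO signal in Otx2 KI and 6377 (40.3%) below it. The cone count is therefore not far from the split of all genes. Some counted values lay within the scanner error, such as the cone gene Gngt2 (0.09) and the rod gene Grk1 (-0.03).

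**Figure D4:**
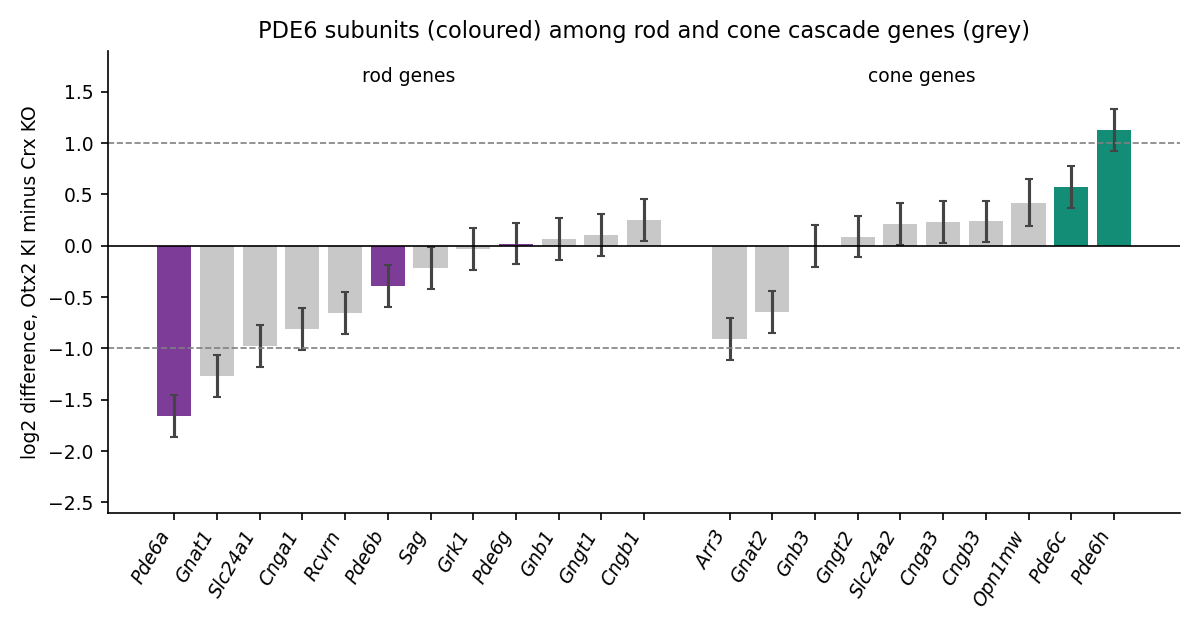
Log2 difference of Otx2 KI minus Crx KO (y axis) for rod genes (left) and cone genes (right), ordered by value within each set. PDE6 genes are coloured, other cascade genes are grey, error bars are the scanner software's error and dashed lines mark 2-fold; Pde6a (-1.66) sits at the low end of the rod genes drawn, and Pde6c (0.57) and Pde6h (1.13) at the high end of the cone genes.

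Against wild-type, the other rod cascade genes were lower as well. All 9 were past 2-fold below wild-type in Otx2 KI (median -1.62) and all 9 in Crx KO (median -1.69). Grk1, a kinase of the rod cascade, was among the least reduced, 2.11-fold lower in Otx2 KI and 2.07-fold lower in Crx KO. The dimmer probe of Grk1 gave -0.89 in Otx2 KI and -0.13 in Crx KO. Cngb1, a rod channel subunit, had 3 probes, of which the least reduced gave -0.82 in Otx2 KI and -0.97 in Crx KO. The count of 9 thus rests on the brightest probe for these genes. Subunits of rod transducin were also unequal. Gnat1, which activates the enzyme, was 124-fold lower in Otx2 KI and 51.3-fold lower in Crx KO, while its partner Gngt1 was 2.10-fold lower in Otx2 KI and 2.26-fold lower in Crx KO.

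The other cone cascade genes were split, with the opsins and Arr3 far below wild-type and most of the others within 2-fold of it. Of 8 measured on both arrays, 2 were past 2-fold below wild-type in Otx2 KI, 1 was past 2-fold above it and 5 were neither, and the counts in Crx KO were equal. The median was -0.17 in Otx2 KI and -0.31 in Crx KO, with Opn1sw at its bound. Both cone opsins were far below wild-type. Opn1mw, the medium-wavelength opsin, had a scaled signal of 71.7 in Otx2 KI and 53.5 in Crx KO, against 7242 in wild-type, and was 101-fold lower in Otx2 KI and 135-fold lower in Crx KO (-5.55 in Otx2 KI and -5.73 in Crx KO with normexp). Opn1sw, the short-wavelength opsin, was not well above background in either mutant and read 207 in wild-type. Set against the dimmest signal well above background on each mutant array, it was at least 16.7-fold lower in Otx2 KI and at least 20.9-fold lower in Crx KO (-1.91 in Otx2 KI and -1.99 in Crx KO with normexp). Arr3 was 11.0-fold lower in Otx2 KI and 5.83-fold lower in Crx KO. Gngt2, the cone transducin gamma subunit, was 4.38-fold higher in Otx2 KI and 4.11-fold higher in Crx KO, and the channel subunit Cnga3 read -0.17 in Otx2 KI and -0.40 in Crx KO. The cone PDE6 genes, at -1.40 to -4.23, thus stood among the lower cone genes.

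The genes that make the cGMP which PDE6 breaks down were lower in Otx2 KI and in part in Crx KO. All 4, 2 guanylate cyclases and their 2 calcium-sensing activators, were past 2-fold below wild-type in Otx2 KI (median -3.02, or -2.35 with normexp background correction). In Crx KO 2 of the 4 were (median -1.77, or -1.35 with normexp). The cyclase Gucy2e was not counted in Crx KO at -0.47, but another of its 3 probes gave -1.03 there. Guca1b, an activator, was 29.7-fold lower in Otx2 KI and 22.1-fold lower in Crx KO, and its other probe gave -7.14 in Otx2 KI and -5.69 in Crx KO. Guca1a, the other activator, was 3.91-fold lower in Otx2 KI, and in Crx KO it read 0.17 above wild-type.

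Genes for proteins that fold, carry or modify PDE6 lay mostly within 2-fold of wild-type. Of 6 chaperone and carrier genes, 0 were past 2-fold in either mutant, with a median of -0.48 in Otx2 KI and -0.44 in Crx KO. Aipl1, the photoreceptor chaperone that PDE6 needs, read -0.99 in Otx2 KI and -0.73 in Crx KO. Pde6d, a carrier of prenylated proteins that shares the PDE6 name without being part of the catalytic enzyme, read -0.48 in Otx2 KI and -0.42 in Crx KO. Unc119, a carrier of acylated transducin, read -0.59 in Otx2 KI and -0.57 in Crx KO. Of 5 prenyl-processing genes, 1 was lower in each mutant, the carboxyl methyltransferase Icmt, at 2.61-fold in Otx2 KI and 2.66-fold in Crx KO, although another of its probes gave -0.71 in Otx2 KI and -0.76 in Crx KO. The complex that ends PDE6 activity by speeding transducin's GTP hydrolysis had 2 of 3 genes lower in Otx2 KI (median -1.36) and 1 of 3 in Crx KO (median -0.98). Its anchor Rgs9bp was 3.22-fold lower in Otx2 KI and 2.44-fold lower in Crx KO, with -0.81 in Otx2 KI and -0.74 in Crx KO on its other probe. Rgs9 itself read -0.20 in Otx2 KI and -0.13 in Crx KO.

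The 18 other cyclic nucleotide phosphodiesterase genes did not share the pattern of the PDE6 family. Of 17 measured on both arrays, 0 were past 2-fold below wild-type in either mutant, and the median was 0.03 in each. The lowest was Pde8b, a cAMP-specific enzyme, at -0.28 in Otx2 KI and -0.45 in Crx KO. Pde7b, also cAMP-specific, was the 1 gene past 2-fold, 2.74-fold higher in Otx2 KI and 2.73-fold higher in Crx KO. Its signal was low, at 63.7 in Otx2 KI and 63.3 in Crx KO against 23.2 in wild-type, and with normexp background correction the differences were 0.61 in Otx2 KI and 0.67 in Crx KO. Pde5a, a cGMP-specific relative with a similar domain layout, read 0.10 in Otx2 KI and -0.21 in Crx KO.

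The genes with the most similar pattern over the 3 arrays were picked by the Euclidean distance between pairs of log2 differences from wild-type, among 10321 brighter genes. Pde6a had 0 genes within 0.25, and its closest were the nuclear receptor Esrrb (distance 0.44), the rod exchanger Slc24a1 (0.68) and Guca1b (0.87). Pde6h had 1 gene within 0.25, the phosphatase Ppm1n (0.11), followed by Nxnl2, a thioredoxin-like photoreceptor gene (0.70), and Hcls1 (0.75). Pde6g had 8 genes that close, led by Frmpd1 (0.03), Trib3 (0.15) and Mdm1 (0.17). Pde6c had 5, led by Kank1 (0.07), Nrtn, the ligand neurturin (0.17), and Dynlrb2 (0.17), and Pde6b had 20, led by Bcar3 (0.08), Padi2 (0.11) and Glmn (0.12). Among the members themselves, the closest pair was Pde6b with Pde6c, at 0.85, and the most distant pair was Pde6a with Pde6b, at 4.81. The nearest of 10321 genes will tend to lie closer than the few pairs of members, so these distances are not compared with those above.

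Of facts that concern the arrays as wholes, 63.5% to 67.1% of 59305 non-control spots were well above background, 0 were saturated, and all 3 arrays came from 1 slide and 1 scan. Crx, the targeted gene of the Crx KO, read 1062 in Otx2 KI and 7177 in Crx KO, against 9790 in wild-type. Otx2 read 63860 in Otx2 KI and 62981 in Crx KO, against 40887 in wild-type. Where these probes lie relative to the changed alleles is not stated, so they check no label, and the arrays are named by their labels. Markers of bipolar, amacrine, horizontal, ganglion and Muller glia cells, 22 genes in all, had 0 past 2-fold in either mutant. The 4 microglia markers also had 0 past 2-fold in either mutant (median 0.14 in Otx2 KI and -0.34 in Crx KO). Pigment epithelium markers were lower together with the PDE6 genes. In Otx2 KI 2 of 5 pigment epithelium genes were past 2-fold below wild-type, and in Crx KO 3 of 5 were (median -1.38, or -0.93 with normexp). Their summed signal was 4431 in Otx2 KI and 3439 in Crx KO, against 9457 in wild-type, and Best1 was not well above background on any array. Lrat was among those past 2-fold in both mutants, but with normexp it read -0.53 in Otx2 KI and -0.82 in Crx KO. Lens markers ran the other way in Otx2 KI. The 4 lens genes summed to 741 in Otx2 KI and 199 in Crx KO, against 277 in wild-type. On the brightest probes all 4 were past 2-fold above wild-type in Otx2 KI (median 1.30, or 0.82 with normexp). In Crx KO 0 were past it (median -0.76, or -0.27 with normexp). The probes of Crygc ran from -0.25 to 1.22 in Otx2 KI and from -1.52 to 0.04 in Crx KO. With normexp, Cryaa read 1.25 in Otx2 KI, while Crygs (0.76), Crygc (0.87) and Cryba1 (0.45) were within 2-fold. The part of these neighbouring tissues in the PDE6 values was not tested.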

How the data were processed

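Retinal RNA from 3 genotypes was measured on 1-colour Agilent arrays, 1 array each, with groups taken from the genotype labels. Per the file headers, the deposited intensity values are spot signals written by Agilent Feature Extraction 12.0.3.1, background-subtracted by that software, for an array designed on mouse build mm9. The authors' deposited value table was the same intensity multiplied by 1 constant per array (2.54 for Otx2 KI, 2.61 for Crx KO, 2.49 for wild-type), on a linear scale, uncentred, with column medians of 125.7 in Otx2 KI, 135.8 in Crx KO and 129.8 in wild-type. The basis of the constants is not stated.

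Control spots and outlier spots (126 to 136 per array) were left out. Log2 signals were reduced by each array's 75th percentile (564 units in Otx2 KI, 570 in Crx KO and 574 in wild-type) and replicate spots averaged. Accessions were matched without versions to RefSeq genes of GRCm38.p6, which named 28331 of 55681 probes. A gene was represented by its brightest probe over the 3 arrays. It was measured if well above background on both arrays compared, and otherwise bounded by the dimmest well-above-background signal (12.4 units in Otx2 KI, 9.94 in Crx KO and 10.2 in wild-type). Python 3.11.15, numpy 2.4.6, pandas 2.3.3, R 4.3.3 and limma 3.58.1 were used, and the steps were tested on simulated data. No test across samples was possible, and the number of arrays limits the precision. Normexp, with an offset of 50, used the median spot signal because the files hold no mean signal, which departs from the plan.

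The members, the gene lists and the tests were chosen with earlier results of these data known. Genes named were the members, up to 4 genes per list with the largest differences, of which some are printed, and the 3 closest patterns per member. Other genes of the lists (Cnga3, Cngb1, Gngt1, Grk1, Gnat2, Pde5a) were named after their values were seen. In the rod cascade list 1 gene is not reported here, and the counts and medians of that list leave it out.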

Additional observations from a re-analysis of the deposited data

How the results depend on the processing

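The 15 member differences were recomputed under normexp background correction, quantile normalization, array medians, centring on inner retina markers, the authors' value table, the mean over a gene's probes and, for Pde6c and Pde6h, the other probe. Array medians, centring and the authors' value table shift all genes of a comparison alike. For Pde6a, Pde6b and Pde6g, with 1 probe each, the mean over probes equals the main value by construction. Of 96 recomputed values, these included, 0 crossed the 2-fold line and 4 moved by more than the scanner error, all for Pde6c. Pde6c in Crx KO was -2.23 with probes averaged and -2.48 on the other probe, and in Otx2 KI minus Crx KO it was 0.78 and 0.98 in the same settings. The 3 values that changed sign were all Pde6g in Otx2 KI minus Crx KO, which ranged from -0.07 to 0.08. The catalytic rod minus cone gap in Crx KO was -0.27 with probes averaged, -0.011 on the other Pde6c probe, -1.87 with Pde6a alone and 0.84 with Pde6b alone. In Otx2 KI it was -4.10 with Pde6a alone and -0.13 with Pde6b alone, and in Otx2 KI minus Crx KO it was -2.01 on the other probe, -2.23 with Pde6a alone and -0.97 with Pde6b alone. The settings with 1 rod subunit were added after seeing the data.

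Counts over all genes depended on the processing. With normexp, 130 genes were higher in Otx2 KI than in wild-type, 182 higher and 328 lower in Crx KO, and 35 higher and 50 lower in Otx2 KI minus Crx KO, a comparison with 4 listed genes past 2-fold in place of 9. Without the filter on dim probes these counts were 498 higher and 906 lower in Otx2 KI, 789 and 1075 in Crx KO, and 394 and 581 in Otx2 KI minus Crx KO. At 1.5-fold they were 578 higher and 1004 lower in Otx2 KI, 805 and 1323 in Crx KO, and 385 and 365 in Otx2 KI minus Crx KO, where 14 listed genes passed. Both alternatives admit more genes by construction. For the share of promoters with each motif, searching only before the start gave 19.8% for GATTA, 16.1% for TGCTGA and 6.25% for TAATCC. No paired analysis was possible because each genotype has 1 array.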
